A study of Mus musculus with 8 samples.

Results

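The genes described are the ligands and receptors of the tumour necrosis factor (TNF) superfamily in medullary thymic epithelial cells (mTEC) of mice with and without the transcription factor gene Cdx1, and in epithelial cells of the small intestine (SIEC). Members were taken by gene name on the array. They are the names that begin with Tnfsf or Tnfrsf, except Tnfrsf19, which was left out by name. The family genes that go by other symbols were added (Tnf, Lta, Ltb, Ltbr, Cd40, Cd40lg, Cd70, Cd27, Fas, Fasl, Eda, Edar, Eda2r, Ngfr and Relt). This gave 56 probes of 44 genes, out of 55669 probes under 34963 gene names. Of the 44 genes 17 encode ligands and 27 encode receptors. Tnfsf13, which was on the list of ligands, was not found under that name and was not analysed here.

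Expression was measured with 1-colour microarrays on 8 pooled RNA samples, 1 array each. There were 3 arrays of Cdx1-/- mTEC, 3 of Cdx1+/+ mTEC, 1 SIEC array labelled Cdx1-/- (replicate 2) and 1 SIEC array labelled Cdx1+/+ (replicate 1). All mice were of a mixed C57BL/6 and 129 background. No Cre or transgene is named in the labels, and neither the age of the mice nor the part of Cdx1 that the allele lacks is given in the sources used here. Each mTEC sample came from 4 to 6 pooled thymi and each SIEC sample from 3 pooled mice. The mTEC were sorted as live cells positive for Epcam and UEA1, negative for CD45 and high for CD80 and MHC class II, so they stand for the mature mTEC subset, and the SIEC were sorted as live Epcam-positive, CD45-negative cells. In pooled cells such as these, fewer cells of a type and less RNA per cell cannot be told apart.

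Ligands of this family are mostly trimers on the cell surface, and some are shed. Their receptors pass the signal through TRAF adaptors to NF-kB, or, where they carry a death domain, through adaptors such as Fadd to caspases. In the thymus, 3 receptors are known to drive the growth and maturation of mTEC: Tnfrsf11a (RANK), Cd40 and Ltbr (the lymphotoxin beta receptor). Their ligands come largely from thymocytes and innate lymphoid cells, and they act through the kinase Map3k14 and the NF-kB subunits Nfkb2 and Relb. In the gut, members of the family take part in epithelial cell death and in the exchange between epithelium and lymphoid cells.

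A level is the log2 processed intensity of a probe minus the 75th percentile of its array, so 0 is the 75th percentile. Levels of different genes come from different probes and are not compared with each other. On the arrays, 58.6% to 63.5% of spots were well above background in mTEC and 44.6% to 46.3% in SIEC. Cdx1 itself read 5.04, 5.20 and 5.21 in Cdx1-/- mTEC, against 6.09, 6.12 and 6.18 in Cdx1+/+ mTEC (log2 difference −0.98, limma adjusted p = 0.00326). In SIEC it went against the labels, with 6.73 for the label Cdx1-/- and 5.13 for the label Cdx1+/+, so every difference within SIEC is given by label. All 10 mTEC markers, among them Aire, were well above background on each mTEC array, and all 10 SIEC markers on both SIEC arrays. The 10 SIEC markers were so on each mTEC array too, and 5 mTEC markers on both SIEC arrays, so these flags do not separate the tissues. By level, all 10 SIEC markers were lower in mTEC than in SIEC in limma's test, and of the mTEC markers 8 were higher and 2 lower. Between genotypes, 6 of the 10 SIEC markers fell in Cdx1-/- mTEC, against 6.62% of all genes. Cdx1-/- mTEC replicate 1 was hybridised on the slide that held the SIEC arrays, and the other 5 mTEC arrays shared another slide.

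Of the 44 member genes, 41 were measured well enough in mTEC to be tested between genotypes, and 10 passed limma's test at an adjusted p under 0.05. In Cdx1-/- mTEC, 5 rose (Tnfrsf26, Tnfrsf4, Tnfrsf23, Tnfsf14 and Tnfsf10) and 5 fell (Tnfrsf10b, Eda, Tnfsf4, Ngfr and Tnf). The 10 are 24.4% of the members tested, against 13% of all 24338 genes tested (6.4% higher and 6.62% lower). The arrays of the genotypes were apart for 23 members (56.1%), against 38.3% of all genes. The median absolute log2 difference was 0.33 over the members and 0.20 over all genes. The other 31 members did not pass. Cd40lg and Eda2r were not well above background on any array, and Edar was so on 1 array of each mTEC genotype, so these 3 were not tested.

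**Figure D1:**
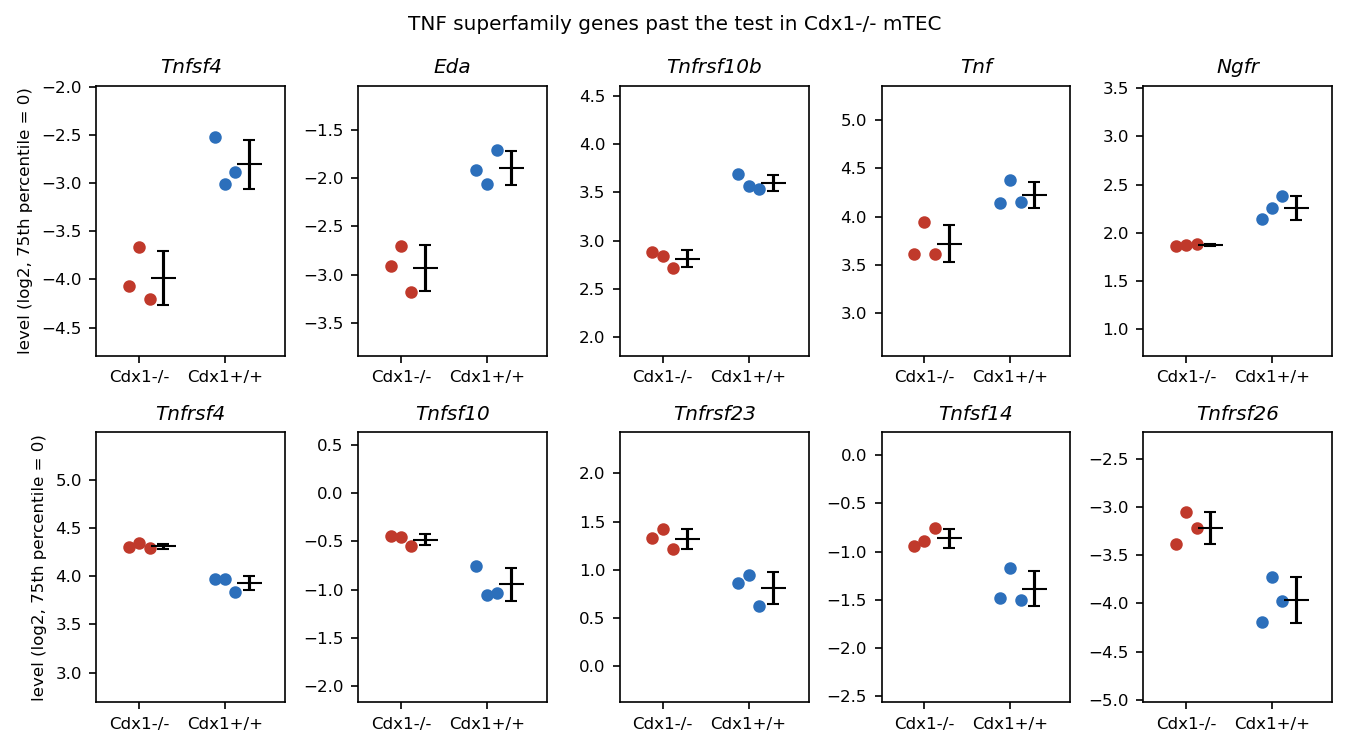
Levels of the 10 member genes past limma's test by genotype, on each mTEC array (points), with the mean and SD of the 3 Cdx1-/- arrays (red, left) and the 3 Cdx1+/+ arrays (blue, right). The vertical axes are log2 levels with the array's 75th percentile at 0, each spanning the same range; in every panel the points of the genotypes do not overlap, with Tnfsf4, Eda, Tnfrsf10b, Tnf and Ngfr lower and the other 5 higher in Cdx1-/- mTEC.

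Among the ligands, Tnfsf4, Eda and Tnf fell, Tnfsf14 and Tnfsf10 rose, and 11 of the 16 tested did not pass, with a median log2 difference of −0.295. Tnfsf4, the OX40 ligand that costimulates T cells, read −4.07, −3.67 and −4.20 in Cdx1-/- mTEC, against −2.53, −3.01 and −2.89 in Cdx1+/+ mTEC. All Cdx1-/- arrays lay below all Cdx1+/+ arrays, and the fall was 2.26-fold (log2 difference −1.17, SE 0.18, adjusted p = 0.0124). Its probe lies on chromosome 1 from 163348095 to 163348153 (mm9). Eda, the ectodysplasin ligand that patterns hair, teeth and glands, read −2.91, −2.71 and −3.18 in Cdx1-/- mTEC, against −1.92, −2.06 and −1.71 in Cdx1+/+ mTEC. It fell 2.05-fold (log2 difference −1.04, SE 0.15, adjusted p = 0.0107), again with no overlap of the groups. This is 1 of its 2 probes, on chromosome X from 97596039 to 97596098 (mm9), and the other was not well above background on any array. Both receptors of ectodysplasin, Edar and Eda2r, are among the 3 genes that were not tested.

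Tnf, the inflammatory cytokine that names the family, read 3.61, 3.94 and 3.61 in Cdx1-/- mTEC, against 4.14, 4.38 and 4.15 in Cdx1+/+ mTEC. The difference was −0.51 (SE 0.13, 1.42-fold lower, adjusted p = 0.0473), and every Cdx1-/- array lay below every Cdx1+/+ array. Its neighbours on chromosome 17, Lta and Ltb, which encode the chains of lymphotoxin, did not share that direction. Lta read 1.64, 1.74 and 1.56 in Cdx1-/- mTEC, against 1.60, 1.82 and 1.47 in Cdx1+/+ mTEC, a difference of 0.01 (95% interval −0.31 to 0.34). Ltb read 4.51, 4.28 and 4.27 in Cdx1-/- mTEC, against 3.89, 3.78 and 4.08 in Cdx1+/+ mTEC, and its difference of 0.44 missed the threshold (adjusted p = 0.0572). The probes of the 3 genes lie within chromosome 17 from 35333097 to 35340334 (mm9).

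Tnfsf14 (LIGHT), a ligand of both Ltbr and Tnfrsf14, rose 1.44-fold. It read −0.94, −0.88 and −0.76 in Cdx1-/- mTEC, against −1.49, −1.17 and −1.50 in Cdx1+/+ mTEC (log2 difference 0.52, SE 0.12, adjusted p = 0.0357). With the replicate number as a block, the adjusted p of this gene was 0.0502. Tnfsf10 (TRAIL), which can trigger cell death through Tnfrsf10b, rose 1.38-fold, with −0.45, −0.45 and −0.55 in Cdx1-/- mTEC, against −0.75, −1.05 and −1.03 in Cdx1+/+ mTEC (log2 difference 0.46, SE 0.11, adjusted p = 0.0386).

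Tnfrsf10b, the receptor with a death domain that binds TRAIL in mice, had the smallest adjusted p of the family. It read 2.88, 2.84 and 2.71 in Cdx1-/- mTEC, against 3.69, 3.56 and 3.53 in Cdx1+/+ mTEC. The groups did not overlap, and the fall was 1.72-fold (log2 difference −0.79, SE 0.09, adjusted p = 0.00601), at a probe on chromosome 14 from 70184141 to 70184200 (mm9). Tnfrsf23 and Tnfrsf22 are known in mice as decoy receptors for the same ligand, and they lie with Tnfrsf26 in a cluster of related genes on chromosome 7 (probes from 150793990 to 150865910, mm9). Tnfrsf23 read 1.33, 1.43 and 1.22 in Cdx1-/- mTEC, against 0.87, 0.94 and 0.62 in Cdx1+/+ mTEC, and rose 1.43-fold (log2 difference 0.51, SE 0.12, adjusted p = 0.0346). Its other, dimmer probe showed a difference of 0.10 (adjusted p = 0.672 with each probe tested on its own), so the probes of this gene do not give the same result.

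Tnfrsf26 read −3.39, −3.05 and −3.22 in Cdx1-/- mTEC, against −4.20, −3.72 and −3.98 in Cdx1+/+ mTEC, and rose 1.68-fold (log2 difference 0.75, SE 0.15, adjusted p = 0.0246). Tnfrsf22 read −3.20, −2.66 and −2.93 in Cdx1-/- mTEC, against −3.20, −3.23 and −3.29 in Cdx1+/+ mTEC, and did not pass (log2 difference 0.31, adjusted p = 0.19). So, among the 4 genes listed as decoy receptors, 2 rose, Tnfrsf23 at its brighter probe only, and Tnfrsf22 and Tnfrsf11b did not pass. A decoy role of Tnfrsf26 was assumed by the list and not tested. Tnfrsf11b (osteoprotegerin), the soluble decoy for the RANK ligand, read 3.82, 3.60 and 3.29 in Cdx1-/- mTEC, against 4.10, 4.02 and 3.92 in Cdx1+/+ mTEC. Its difference was −0.44 (95% interval −0.85 to −0.04, adjusted p = 0.0925), with the arrays of the groups apart.

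Of the 5 receptors with death domains listed apart from the TNF receptors, 2 fell (Tnfrsf10b and Ngfr) and 3 did not pass (Fas, Tnfrsf21 and Tnfrsf25). Ngfr, the low-affinity receptor of nerve growth factor, read 1.87, 1.88 and 1.88 in Cdx1-/- mTEC, against 2.14, 2.25 and 2.38 in Cdx1+/+ mTEC. It fell 1.30-fold (log2 difference −0.38, SE 0.09, adjusted p = 0.0406), and its adjusted p with the replicate number as a block was 0.05, no longer under the threshold. Tnfrsf25, the receptor of the ligand Tnfsf15, differed by 0.48 and did not pass (adjusted p = 0.0659), but did with the replicate block (adjusted p = 0.0313). Tnfsf15 itself differed by −0.75 (adjusted p = 0.0579, and 0.0443 with that block). Fas differed by −0.01 (95% interval −0.52 to 0.49).

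Among the 6 costimulatory receptors, Tnfrsf4 rose while the other 5 missed the threshold, and the median log2 difference was 0.35. Tnfrsf4 (OX40), the receptor of the Tnfsf4 ligand, read 4.30, 4.34 and 4.29 in Cdx1-/- mTEC, against 3.97, 3.98 and 3.84 in Cdx1+/+ mTEC. The rise was 1.30-fold (log2 difference 0.38, SE 0.08, adjusted p = 0.0309). The receptor and its ligand thus passed the test in opposite directions. Their chromosomal neighbours with a like pairing, the receptor gene Tnfrsf18 (GITR) and its ligand gene Tnfsf18, differed by 0.38 (adjusted p = 0.0621) and 0.45 (adjusted p = 0.0582) and did not pass. Cd27, the receptor of Cd70, differed by 0.59 with a wide interval (−0.18 to 1.35, adjusted p = 0.20), and passed only with the replicate block (adjusted p = 0.0392).

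The 3 receptors that drive mTEC development did not pass. Tnfrsf11a read 4.99, 5.18 and 5.10 in Cdx1-/- mTEC, against 5.36, 5.44 and 5.34 in Cdx1+/+ mTEC. The groups were apart, and the difference was −0.29 (95% interval −0.54 to −0.04, adjusted p = 0.0808). Cd40 read 4.50, 4.65 and 4.65 in Cdx1-/- mTEC, against 4.76, 4.73 and 4.76 in Cdx1+/+ mTEC, a difference of −0.15 (95% interval −0.39 to 0.08, adjusted p = 0.261). Ltbr read 1.25, 1.44 and 1.55 in Cdx1-/- mTEC, against 1.25, 1.28 and 1.24 in Cdx1+/+ mTEC, a difference of 0.16 (95% interval −0.12 to 0.44, adjusted p = 0.326). None of these 3 intervals reaches a doubling or halving of the level.

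Tnfsf11, the RANK ligand, was dim in mTEC, at −3.73, −4.42 and −3.85 in Cdx1-/- mTEC and −3.85, −3.58 and −3.60 in Cdx1+/+ mTEC, with 5 of the 6 arrays well above background. Its difference was −0.33 (95% interval −0.85 to 0.20). Tnfrsf1a, the broadly expressed receptor of TNF, read 2.05, 2.04 and 2.02 in Cdx1-/- mTEC and 2.10, 2.00 and 2.02 in Cdx1+/+ mTEC, a difference of −0.01 (95% interval −0.22 to 0.21). Tnfrsf1b, the second TNF receptor, differed by −0.02 (95% interval −0.33 to 0.29). The receptors of the B cell survival factors BAFF and APRIL (Tnfrsf13b, Tnfrsf13c and Tnfrsf17) differed by −0.09, 0.11 and 0.08 and did not pass. The dimmer of the Tnfrsf13c probes did, at 0.42 (adjusted p = 0.0379 with each probe tested on its own).

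**Figure D2:**
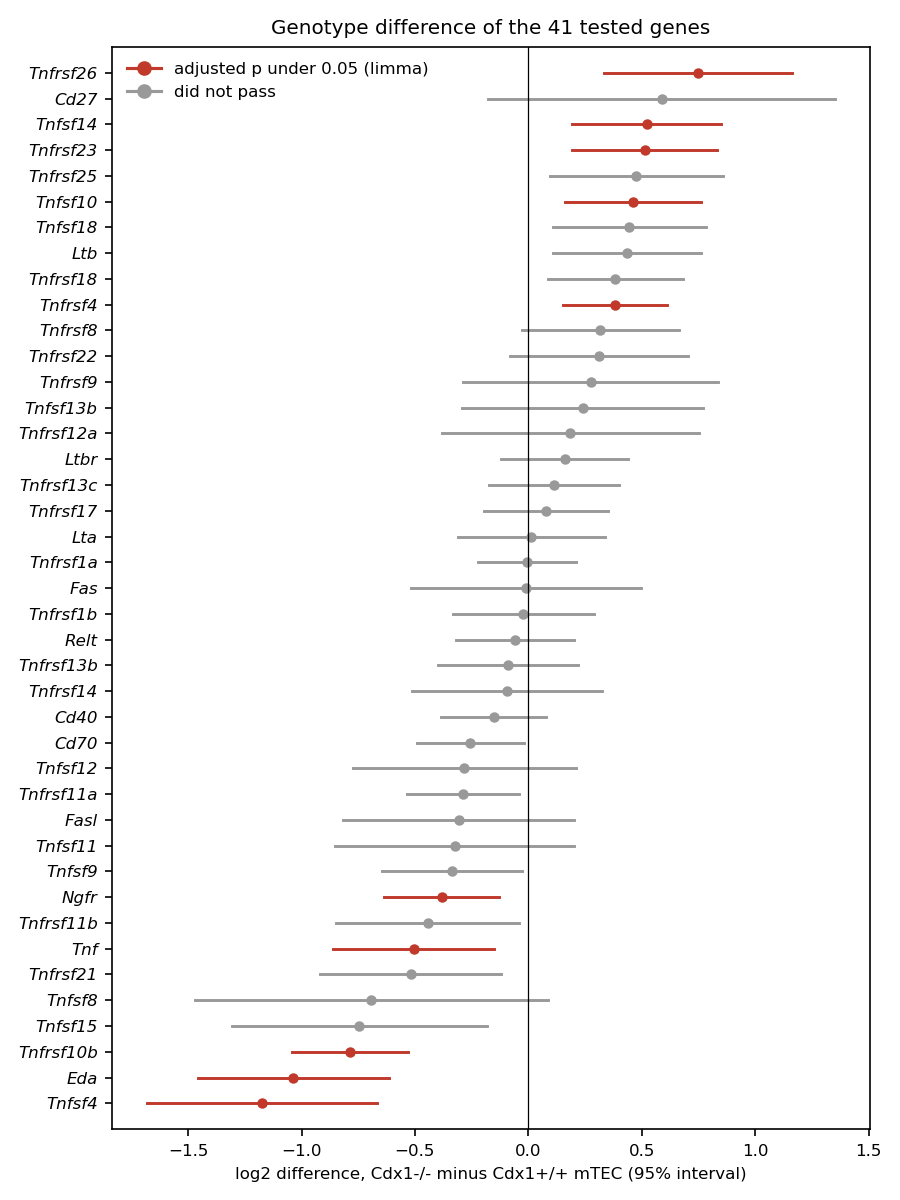
Log2 difference, Cdx1-/- minus Cdx1+/+ mTEC, of the 41 tested member genes (points) with its 95% interval (lines), not adjusted for the number of genes. The interval joins limma's SE to the residual degrees of freedom of the gene's own fit, so it is wider than limma's test implies. Red marks the 10 genes past the adjusted threshold, from Tnfsf4 at −1.17 to Tnfrsf26 at 0.75; most of the grey intervals include 0.

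The remaining members did not pass, though some differences were as large as those of members that did. Tnfsf8, the ligand of Tnfrsf8, differed by −0.69 (95% interval −1.47 to 0.09) and Tnfrsf21 by −0.52, Tnfsf9 by −0.34, Fasl by −0.31, Tnfsf12 by −0.28 and Cd70 by −0.26. Tnfrsf8 differed by 0.32, Tnfrsf9 by 0.27, Tnfsf13b (BAFF) by 0.24 and Tnfrsf12a by 0.18, while Tnfrsf14 differed by −0.10 and Relt by −0.06. Adjusted p ranged from 0.0601 for Tnfrsf21 to 0.711 for Relt.

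How firmly these calls stood differed between genes. Tnfrsf10b, Eda and Tnfsf4 passed under all 14 alternative settings, with adjusted p of at most 0.024, 0.0364 and 0.0396. The sizes held less well for the dim ones: with normexp background correction the difference was −0.47 for Tnfsf4 and −0.69 for Eda, while it was −0.78 for Tnfrsf10b. Within the slide that held 5 mTEC arrays, their differences were −0.82, −1.05 and −1.13. The other 7 passed in 5 to 8 of the 14 settings. The settings are not separate checks. Slide as a block gave these genes the same differences as leaving out Cdx1-/- replicate 1, the only mTEC array on its slide. The authors' values differ from those used here by a constant per array. Leaving out 1 array at a time ended the calls of Ngfr (adjusted p 0.0538 to 0.118), Tnfrsf23 (0.0525 to 0.0934) and Tnfrsf4 (0.0611 to 0.0995) in all 6 cases. Tnf passed without Cdx1-/- replicate 2 (0.0388) and in none of the other 5 cases (up to 0.121). Tnfsf10 passed without Cdx1+/+ replicate 1 (0.0329) and Tnfsf14 without Cdx1+/+ replicate 2 (0.0306), and otherwise reached 0.114 and 0.105. Tnfrsf26 passed without Cdx1-/- replicate 1 or Cdx1+/+ replicate 2 and reached 0.0716 in the other 4 cases. In the slide with 5 mTEC arrays the differences kept their signs, at 0.83 for Tnfrsf26, 0.56 for Tnfsf14, 0.51 for Tnfrsf23, 0.45 for Tnfsf10, 0.39 for Tnfrsf4, −0.38 for Ngfr and −0.45 for Tnf, and of these only Tnfrsf26 passed (adjusted p = 0.0397 with slide as a block).

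Some members of the family mark lymphoid cells, so marker genes of other cells were read on the same arrays. The summed linear level of 6 B cell markers was 14.6, 15.04 and 16.03 times the 75th percentile in Cdx1-/- mTEC, against 10.69, 12.03 and 11.14 in Cdx1+/+ mTEC, without overlap. Of the 5 tested, Cd79b and Blk rose and 3 did not pass. The sum of 6 innate lymphoid and NK cell markers was 4.03, 3.55 and 3.85 in Cdx1-/- mTEC, against 3.12, 2.44 and 2.88 in Cdx1+/+ mTEC, also without overlap, with Il7r higher, Il17a lower, and Klrb1c and Ncr1 not well above background on any mTEC array. The sums of 11 thymocyte and T cell markers overlapped, at 14.9 to 19.3 in Cdx1-/- mTEC and 16.0 to 21.7 in Cdx1+/+ mTEC. Sums of dendritic cell and macrophage markers (34.8 to 40.3 in Cdx1-/- and 36.7 to 45.6 in Cdx1+/+ mTEC), mesenchyme markers (22.7 to 26.9 and 23.0 to 27.1) and endothelial markers (1.89 to 3.18 and 2.76 to 3.91) overlapped too. Single markers in these lists still moved: Lyz2 rose (log2 difference 0.93, limma adjusted p = 0.00387), and Mrc1 (−1.42, 0.00201), Pdgfrb (−0.78, 0.00843) and Ptcra (−0.48, 0.0201) fell in Cdx1-/- mTEC. The part of RNA from these other cell types in the members' differences was not tested.

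Downstream of the receptors, no gene of the signalling lists passed between genotypes. The count was 0 of 25 adaptors and regulators, 0 of 14 NF-kB genes and 0 of 17 death pathway genes in limma's test, where 11 of these 56 genes (19.6%) had an unadjusted p under 0.05, against 31.2% of all genes tested. By the adjusted test 13% of all genes passed. Median log2 differences were 0.03, −0.004 and 0.07, against 0.01 over all genes. Nfkb2 differed by −0.36 (adjusted p = 0.0851), and Nfkbid by −0.46 (adjusted p = 0.097), both short of the threshold.

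Between tissues, the family differed widely, and most of the members that passed were higher in mTEC than in SIEC. Of 41 members tested over all 8 arrays with genotype as a term, 28 were higher and 7 lower in mTEC and 6 did not pass, so 85.4% passed. Of all 25273 genes 84.1% passed, 33.9% higher and 50.2% lower. At least 2-fold differences past the test were found in 24 members higher and 5 lower, against 63.6% of all genes (28.6% higher and 35% lower). The median log2 difference was 1.99 over the members and −0.46 over all genes. A gene could enter this test on either tissue alone. Of the 41 members, 15 were not well above background on either SIEC array, and 14 of those were called higher, so the count of 28 rests in part on genes that had to differ. Of the 24 members well above background on both SIEC arrays, 13 were higher, 7 lower and 4 did not pass (54.2% and 29.2%), against 16.8% higher and 68.3% lower among the 16757 genes measured in both tissues, of which 85.1% passed. With normexp background correction 23 members were higher and 12 lower. The median of all genes moved with the scaling, at −0.46 here, −0.13 after quantile normalization and −0.90 in the authors' deposited values, so a member's difference relative to all genes is 0.46 more positive than the value given.

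**Figure D3:**
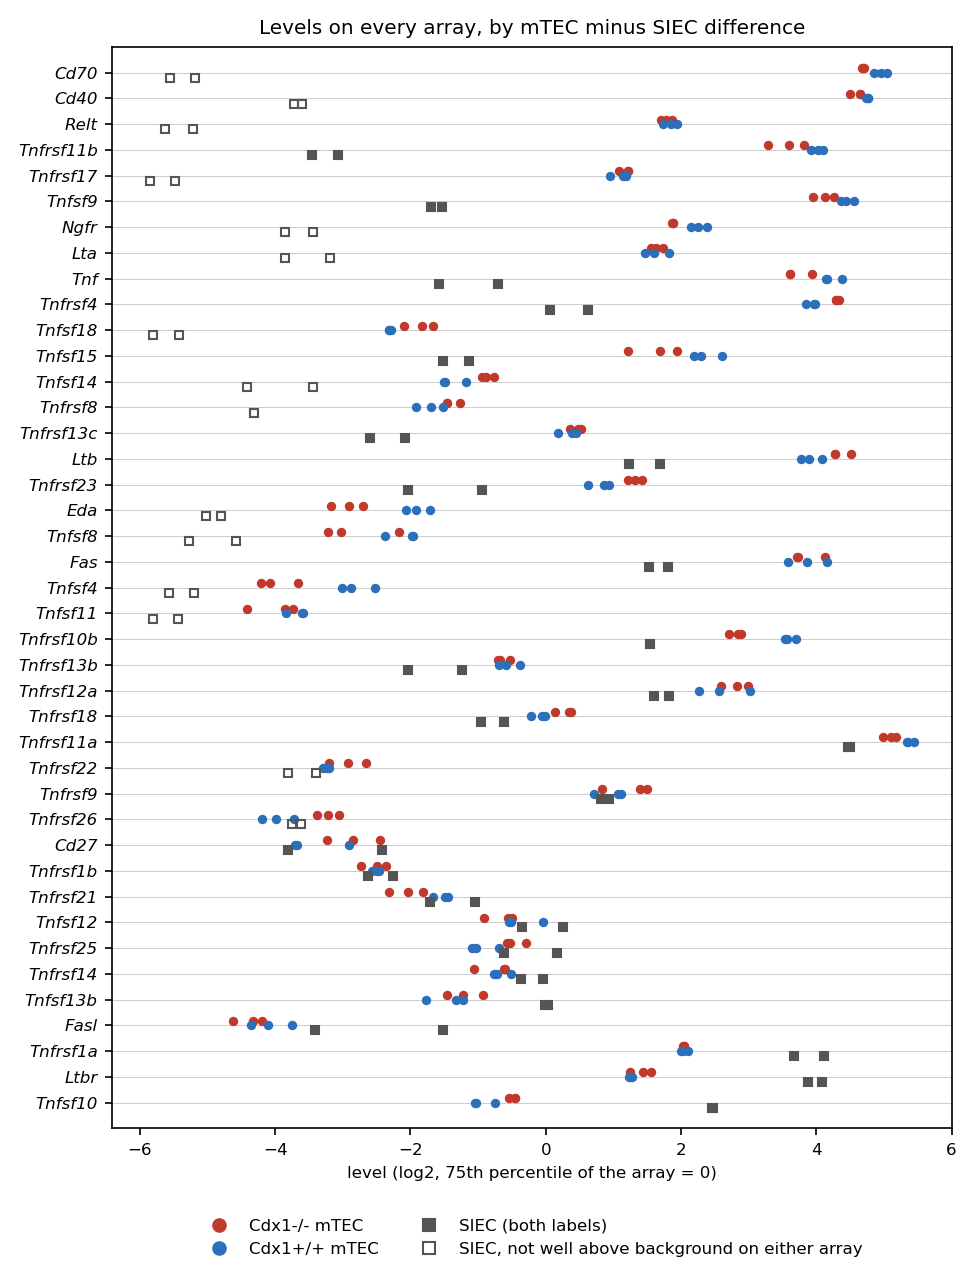
Levels of the 41 tested member genes on each array, ordered by the mTEC minus SIEC difference, with Cdx1-/- mTEC in red, Cdx1+/+ mTEC in blue and the 2 SIEC arrays as grey squares below them, open where neither SIEC array was well above background. The horizontal axis is the log2 level with the array's 75th percentile at 0, and only the distance between points of 1 gene is meaningful; Cd70 and Cd40 lie farthest to the right of their SIEC points and Tnfsf10 and Ltbr farthest to the left.

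Cd40 showed the clearest contrast among the receptors of mTEC development. It read 4.50 to 4.76 with a median of 4.69 on the mTEC arrays and was not well above background in SIEC, at −3.73 and −3.60, which makes it at least 268-fold higher in mTEC in the setting used here (adjusted p = 2.38e-09). The "at least" folds hold for that background correction only. With normexp the fitted log2 differences were smaller, at 6.16 for Cd40, 6.77 for Cd70, 3.76 for Relt, 3.64 for Ngfr, 3.35 for Tnfrsf17 and 3.26 for Lta, and each of these still passed. Tnfrsf11a (RANK) read 4.99 to 5.44 with a median of 5.26 in mTEC, against 4.46 and 4.50 in SIEC. It was well above background on every array, and 1.69-fold higher in mTEC (log2 difference 0.75, SE 0.11, adjusted p = 0.000357). Ltbr went the other way, at 1.24 to 1.55 with a median of 1.27 in mTEC, against 4.08 and 3.87 in SIEC, and was 6.24-fold lower in mTEC (log2 difference −2.64, SE 0.11, adjusted p = 2.71e-07). After quantile normalization the difference was 1.61 for Tnfrsf11a and −1.96 for Ltbr. The 3 receptors thus differed from each other in how mTEC stood to SIEC, with no mTEC array overlapping a SIEC array in any of them.

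The ligand Cd70, which costimulates T cells through Cd27, read 4.67 to 5.04 with a median of 4.78 in mTEC and was not well above background in SIEC, at −5.18 and −5.55. It was at least 296-fold higher in mTEC (adjusted p = 3.19e-09). Its receptor gene Cd27 was dim in both tissues and did not pass, with a difference of −0.01 (95% interval −0.80 to 0.77). Tnfsf9, a T cell costimulator that binds Tnfrsf9, read 3.95 to 4.56 with a median of 4.31 in mTEC, against −1.70 and −1.53 in SIEC, 59.5-fold higher in mTEC (log2 difference 5.89, adjusted p = 1e-08).

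Tnf read 3.61 to 4.38 with a median of 4.04 in mTEC, against −0.71 and −1.58 in SIEC. It was well above background on all 8 arrays and 34.7-fold higher in mTEC (log2 difference 5.12, SE 0.29, adjusted p = 1.31e-06). The difference was 5.81 without the SIEC array labelled Cdx1-/- and 4.43 without the one labelled Cdx1+/+. Lta read 1.47 to 1.82 with a median of 1.62 in mTEC and was not well above background in SIEC, at −3.18 and −3.86, at least 32.2-fold higher in mTEC (adjusted p = 8.59e-08). Ltb read 3.78 to 4.51 with a median of 4.18 in mTEC, against 1.69 and 1.23 in SIEC, 6.40-fold higher in mTEC (log2 difference 2.68, adjusted p = 4.75e-07). All 3 genes of that cluster were therefore higher in mTEC, while their receptors Ltbr and Tnfrsf1a were lower.

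Tnfrsf1a read 2.00 to 2.10 with a median of 2.03 in mTEC, against 4.12 and 3.68 in SIEC, and was 3.63-fold lower in mTEC (log2 difference −1.86, SE 0.12, adjusted p = 3.44e-06). After quantile normalization its difference was −1.13. Relative to the median of all genes its difference was −1.39, and that of Ltbr −2.18. Tnfrsf1b did not pass, at −0.08 (95% interval −0.43 to 0.27), but it was lower in mTEC and passed in 3 of 16 alternatives, with −0.59 after quantile normalization (adjusted p = 0.00514), −0.52 in the authors' deposited values (0.0144) and −0.51 with normexp (0.00568).

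Several receptors other than Cd40 were well above background in mTEC and at or near background in SIEC. Tnfrsf11b read 3.29 to 4.10 with a median of 3.87 in mTEC, against −3.45 and −3.07 in SIEC, where 1 of the 2 arrays was well above background, a fitted difference of 7.05 (adjusted p = 1.04e-08). Relt, a receptor of lymphoid tissues, read 1.71 to 1.94 with a median of 1.81 in mTEC and −5.21 and −5.62 in SIEC, at least 36.9-fold higher in mTEC (adjusted p = 6.82e-09). Tnfrsf17 (BCMA), known from plasma cells, read 0.95 to 1.21 with a median of 1.16 in mTEC and −5.48 and −5.84 in SIEC, at least 23-fold higher in mTEC (adjusted p = 5.69e-09). Over the 6 mTEC arrays Relt and Tnfrsf17 spread less than Tnfrsf11b, and no mTEC array of these genes overlapped a SIEC array.

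Ngfr read 1.87 to 2.38 with a median of 2.01 in mTEC and −3.44 and −3.85 in SIEC, at least 43.9-fold higher in mTEC (adjusted p = 5.82e-08). Tnfrsf4 read 3.84 to 4.34 with a median of 4.13 in mTEC, against 0.62 and 0.07 in SIEC, 13.7-fold higher in mTEC (log2 difference 3.78, SE 0.10, adjusted p = 2.8e-08). The marker sums beside these tissue differences were 14.9 to 21.7 in mTEC and 49.5 and 17.95 in SIEC for thymocytes and T cells, 10.69 to 16.03 in mTEC and 6.00 and 4.74 in SIEC for B cells, and 34.8 to 45.6 in mTEC and 83.2 and 42.6 in SIEC for dendritic cells and macrophages. Of the 8 markers tested in the list of dendritic cells and macrophages, 6 were higher and 1 was lower in mTEC. Itgam in that list had log2 levels of 2.145 to 3.98 in mTEC, against 6.29 and 5.30 in SIEC. The sum of this list lay above all mTEC arrays on the SIEC array labelled Cdx1-/- only. On the SIEC array labelled Cdx1+/+ it lay within the mTEC range, so the sum does not show the direction of most single markers. Mesenchyme markers summed to 22.7 to 27.1 in mTEC and 1.59 and 0.889 in SIEC. Their part in the result was not tested.

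Besides Ltbr and Tnfrsf1a, 5 members were lower in mTEC. Tnfsf10 (TRAIL) read −1.05 to −0.45 with a median of −0.65 in mTEC, against 2.47 and 2.45 in SIEC, 9.01-fold lower in mTEC (log2 difference −3.17, SE 0.14, adjusted p = 3.86e-07). Its death receptor Tnfrsf10b was 3.17-fold higher in mTEC (log2 difference 1.66, adjusted p = 5.28e-05). Tnfsf13b (BAFF) read −1.77 to −0.92 with a median of −1.27 in mTEC, against −0.01 and 0.03 in SIEC, a difference of −1.33 (adjusted p = 0.000369). No mTEC array overlapped a SIEC array for Tnfsf10 or Tnfsf13b.

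Fasl, the death ligand of cytotoxic lymphocytes, read −4.62 to −3.75 with a median of −4.26 in mTEC, against −1.51 on the SIEC array labelled Cdx1-/- and −3.42 on the one labelled Cdx1+/+. Its difference of −1.76 (adjusted p = 0.00655) rested on the array labelled Cdx1-/-: without it the difference was −0.66 and the adjusted p 0.0528, and without the array labelled Cdx1+/+ the difference was −2.87. On that array the T cell marker sum was 49.5, against 17.95 on the array labelled Cdx1+/+. The part of T cell RNA in the Fasl value was not tested.

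Tnfrsf14 (HVEM), the receptor of Tnfsf14, read −1.06 to −0.51 with a median of −0.67 in mTEC, against −0.37 and −0.04 in SIEC, a difference of −0.51 (adjusted p = 0.0172) that was −0.40 (adjusted p = 0.127) without the SIEC array labelled Cdx1+/+. Tnfrsf21 (death receptor 6) read −2.31 to −1.45 with a median of −1.73 in mTEC, against −1.71 and −1.04 in SIEC, with overlap. Its difference of −0.42 (adjusted p = 0.0302) was no longer past the threshold without the SIEC array labelled Cdx1-/- (0.0599), the SIEC array labelled Cdx1+/+ (0.156) or Cdx1+/+ mTEC replicate 1 (0.0572). Relative to the median of all genes the differences of Tnfrsf14 and Tnfrsf21 were −0.05 and 0.04, so these 2 genes followed the bulk of the array.

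Outside the 10 largest, 18 further members were higher in mTEC, 8 of them ligands (Ltb included). Against a dim SIEC signal, Tnfsf14 was at least 4.82-fold higher, Tnfrsf8 at least 3.59-fold, Tnfsf18 at least 2.47-fold, Eda at least 1.97-fold, Tnfsf8 at least 1.92-fold and Tnfrsf22 at least 1.17-fold. Tnfsf4 and Tnfsf11 passed the test (fitted differences 1.99 and 1.78), but no fold is given for them, because their mean mTEC levels (−3.39 and −3.84) did not lie above the bound set by the lowest levels well above background on the SIEC arrays (−3.22 and −3.56, averaged). The Tnfsf4 difference was 2.77 without the SIEC array labelled Cdx1-/- and 1.21 without the one labelled Cdx1+/+. Tnfsf11 read −4.42 to −3.58 with a median of −3.79 in mTEC and −5.44 and −5.80 in SIEC. With normexp its difference was −0.35 (adjusted p = 0.0698), that of Tnfsf4 −0.20 (adjusted p = 0.25) and that of Tnfrsf22 −0.40 (adjusted p = 0.047), each with the sign turned, so the direction of these 3 depends on the background correction. Under normexp the differences of Tnfsf14, Tnfrsf8 and Tnfsf18 were 0.85, 0.72 and 0.52, and each still passed. Eda and Tnfsf8 kept their sign under normexp but did not pass (adjusted p = 0.401 and 0.575). Tnfrsf22 also ended its call when single arrays were left out, with an adjusted p of up to 0.505 without the SIEC array labelled Cdx1-/-.

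Measured in both tissues and higher in mTEC were Tnfsf15 (log2 difference 3.32), Tnfrsf13c (6.64-fold), Tnfrsf23 (5.86-fold), Fas (4.57-fold), Tnfrsf13b (2.07-fold), Tnfrsf12a (1.99-fold) and Tnfrsf18 (1.84-fold), with adjusted p from 6.66e-07 for Tnfrsf13c to 0.00215 for Tnfrsf12a. Tnfrsf13b was no longer past the threshold with slide as a block (adjusted p = 0.0525). The members that did not pass, besides Cd27 and Tnfrsf1b, were Tnfrsf9 (0.23), Tnfrsf26 (0.09), Tnfsf12 (−0.46) and Tnfrsf25 (−0.47).

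For Tnfrsf9 and Tnfsf12 that result depended on the probe. Tnfrsf9, a receptor of activated T cells, has both its probes on chromosome 4. The one from 150319582 to 150319641 (mm9) read 0.83, 1.39 and 1.49 in Cdx1-/- mTEC, 0.71, 1.08 and 1.11 in Cdx1+/+ mTEC, and 0.82 and 0.93 in SIEC, a tissue difference of 0.23 (adjusted p = 0.348 with each probe tested on its own). The one from 150319101 to 150319160 read 0.86, 1.01 and 1.07 in Cdx1-/- mTEC, 0.96, 1.02 and 0.93 in Cdx1+/+ mTEC, and −3.05 and −4.07 in SIEC, where it was not well above background on either array (difference 4.54, adjusted p = 5.76e-07). Tnfsf12 (TWEAK) parted the same way, with −0.46 (adjusted p = 0.108) at the probe from 69500342 to 69500401 on chromosome 11 and 4.13 (adjusted p = 1.67e-06) at the probe from 69500528 to 69500587. In each gene both probes were well above background on all 6 mTEC arrays, and only 1 of them on the SIEC arrays.

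**Figure D4:**
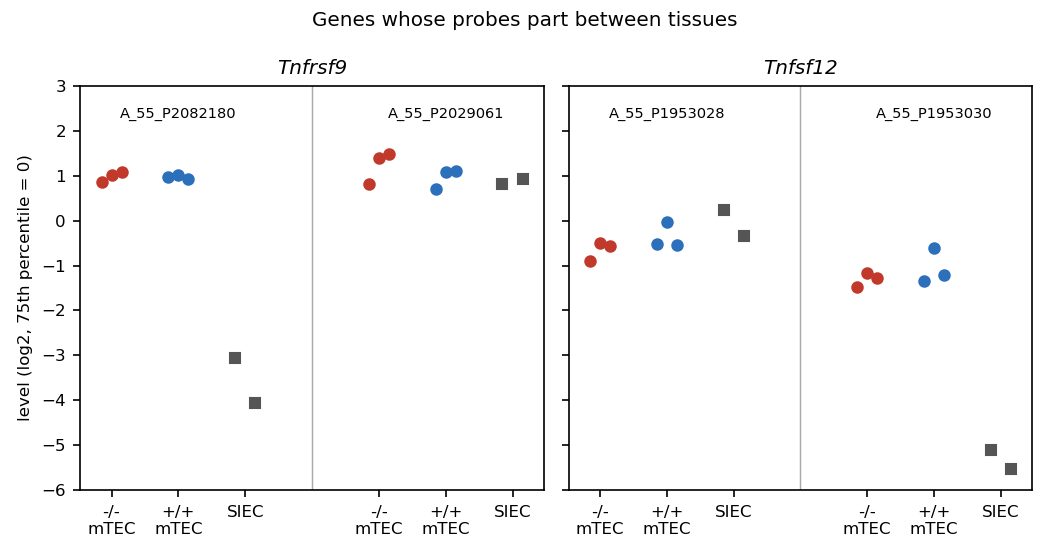
Levels of both probes of Tnfrsf9 (left) and of Tnfsf12 (right) on each array, with Cdx1-/- mTEC in red, Cdx1+/+ mTEC in blue and SIEC as grey squares; the vertical axis is the log2 level with the array's 75th percentile at 0. In each gene 1 probe has SIEC points among the mTEC points or near them, and the other has SIEC points at −3.05 or lower.

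Tnfrsf13b gave a milder case, with 1.05 at its brightest probe and −0.29 (adjusted p = 0.089) at another, and so did Tnfrsf22, with 0.51 and −0.50 (adjusted p = 0.306). Both Tnfrsf1a probes were lower in mTEC (−1.86 and −1.49), as were both Tnfrsf14 probes (−0.51 and −0.73), and both Tnfrsf13c probes were higher (2.73 and 1.45), as were both Tnfrsf23 probes (2.55 and 1.17).

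The signalling genes downstream of the receptors differed by list between tissues. Of 14 NF-kB genes tested, 11 were higher and 2 lower in mTEC, with a median of 0.90. The inhibitor genes Nfkbie (5.62), Nfkbid (4.16) and Nfkbia (3.28), the subunit genes Nfkb2 (3.61) and Relb (1.73) and the kinase gene Map3k14 (2.53) were higher, and Bcl3 (−1.79) and Chuk (−1.18) were lower, as log2 differences. Nfkb2, Relb, Map3k14 and Chuk all belong to the branch of the pathway that Tnfrsf11a, Cd40 and Ltbr use, and of these Chuk was lower in mTEC. Of 25 adaptors and regulators, 12 were higher and 12 lower, with a median of 0.11. Traf1 (4.84), Birc3 (2.94), Tnip2 (2.74) and Birc2 (2.41) were higher, and the adaptors Tradd (−2.93), Tab1 (−1.98) and Fadd (−1.83) and the linear ubiquitin ligase subunit Sharpin (−1.58) were lower.

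Of 17 death pathway genes, 3 were higher and 11 lower in mTEC, with a median of −1.46. These counts lay near the shares of the 16757 genes measured in both tissues, 16.8% higher and 68.3% lower. The higher ones were the inhibitors Cflar (3.58) and Bcl2l1 (1.497), and Bax (0.29), which promotes death. Among the lower ones were the caspase genes Casp8 (−2.04) and Casp9 (−1.59), Cycs (−2.39), which encodes cytochrome c, the kinase gene Ripk3 (−2.06) and Bak1 (−1.97). The death inhibitor Xiap (−1.46), named after its value was seen, was lower too, so inhibitors stood on both sides. Against the median of −0.46 over all genes, the NF-kB list lay above and the death pathway list below. That median includes genes measured in 1 tissue only, unlike these lists.

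**Figure D5:**
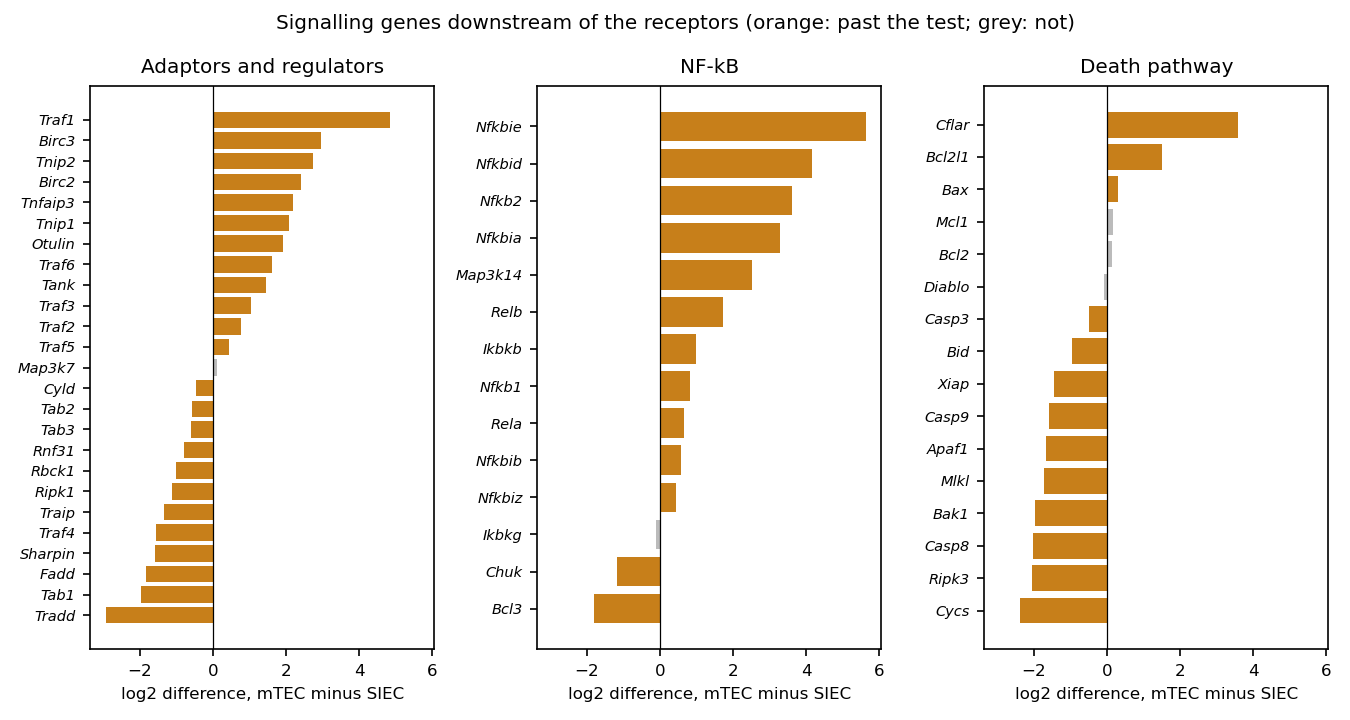
Log2 difference, mTEC minus SIEC, of the tested genes of 3 signalling lists (bars from 0), orange where limma's adjusted p was under 0.05 and grey where it was not. The NF-kB list has 11 orange bars to the right of 0 and 2 to the left, the adaptor list 12 and 12, and the death pathway list 3 and 10, with 1 lower gene not drawn. Among all genes measured in both tissues, 16.8% were higher and 68.3% lower in mTEC.

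Within SIEC there is 1 array per label and so no test. Of the 24 members well above background on both arrays, 2 were at least 2-fold higher on the array labelled Cdx1-/- and 0 at least 2-fold lower, against 3.4% and 1.17% of the 17163 genes measured on both. Cdx1 went against the labels. Whether they were exchanged was not tested, and an exchange would turn the sign of every difference within SIEC, making these 2 members lower. Fasl had −1.51 for the label Cdx1-/- and −3.42 for the label Cdx1+/+ (3.74-fold), beside the T cell marker sums given above. Tnfrsf23 had −0.93 for the label Cdx1-/- and −2.03 for the label Cdx1+/+ (2.14-fold). Among the genes called in mTEC, Tnf differed by 0.88, Tnfrsf4 by 0.55, Tnfsf10 by 0.01 and Tnfrsf10b by −0.003 between the labels. The largest differences the other way were those of Tnfrsf25 (−0.78) and Tnfrsf21 (−0.67).

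Promoter sequence from RefSeq (GRCm38.p6) was at hand for 34 of the 44 genes, in 37 windows of 250 bases up to the transcript start. The windows were searched on both strands for the letters TTTATG, the core that CDX proteins are known to bind, and for a form of the NF-kB site, GGG, then any 2 bases, then TTTCC. No match of one overlapped a match of the other in a member's window. TTTATG stood in the windows of 4 members (Tnfsf15, Tnfrsf9, Tnfsf13b and Tnfrsf17) and in 10.8% of all 32851 windows of this length. The NF-kB letters stood in the windows of 3 members (Tnfrsf9, Tnfrsf25 and Ltb) and in 1.41% of all windows. Of the 10 genes called between genotypes 7 had a window, and 0 of these held either run of letters. Tnfrsf10b, Tnfsf4 and Tnfrsf26 had no window. Of the genes called under every alternative setting, only Eda was therefore searched. A match is a description of letters, and its absence says only that they are not in this window.

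The windows below show 4 of the matches, 2 of each kind, with Eda as a called gene that holds none. The windows of Tnfsf13b, Tnfrsf17 and Tnfrsf25 that hold matches are not printed. They run 5′ to 3′ on the strand of the gene, with the matching letters in capitals. Tnfsf15 (chr4:63745060-63745309, minus strand) has TTTATG on the opposite strand, and the first Tnfrsf9 window (chr4:150919905-150920154, plus strand) has it on the strand of the gene. The second Tnfrsf9 window (chr4:150927749-150927998, plus strand) and that of Ltb (chr17:35194257-35194506, plus strand, match on the opposite strand) have the NF-kB letters, which in Tnfrsf9 end 34 bases and in Ltb 78 bases before the start. The Eda window is chrX:99975356-99975605 on the plus strand.
Tnfsf15: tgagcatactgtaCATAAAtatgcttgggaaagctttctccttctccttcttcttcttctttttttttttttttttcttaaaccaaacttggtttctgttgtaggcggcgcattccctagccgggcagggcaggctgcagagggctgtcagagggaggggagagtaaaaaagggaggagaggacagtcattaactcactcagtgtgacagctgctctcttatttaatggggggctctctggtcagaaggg
Tnfrsf9, first window: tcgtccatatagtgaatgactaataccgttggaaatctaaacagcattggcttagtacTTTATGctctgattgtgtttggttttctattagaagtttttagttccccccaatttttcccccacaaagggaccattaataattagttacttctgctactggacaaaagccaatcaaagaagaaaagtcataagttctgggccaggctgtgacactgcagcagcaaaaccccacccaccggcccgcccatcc
Tnfrsf9, second window: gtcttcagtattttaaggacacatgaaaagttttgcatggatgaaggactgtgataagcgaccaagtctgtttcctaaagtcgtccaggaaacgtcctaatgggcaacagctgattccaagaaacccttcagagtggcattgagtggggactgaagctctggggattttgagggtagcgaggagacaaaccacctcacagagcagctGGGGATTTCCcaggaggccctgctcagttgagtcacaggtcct
Ltb: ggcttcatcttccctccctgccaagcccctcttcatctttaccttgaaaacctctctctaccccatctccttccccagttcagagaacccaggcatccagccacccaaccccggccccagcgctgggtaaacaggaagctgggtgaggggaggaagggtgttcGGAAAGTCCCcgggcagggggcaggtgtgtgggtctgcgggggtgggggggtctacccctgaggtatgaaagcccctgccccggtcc
Eda: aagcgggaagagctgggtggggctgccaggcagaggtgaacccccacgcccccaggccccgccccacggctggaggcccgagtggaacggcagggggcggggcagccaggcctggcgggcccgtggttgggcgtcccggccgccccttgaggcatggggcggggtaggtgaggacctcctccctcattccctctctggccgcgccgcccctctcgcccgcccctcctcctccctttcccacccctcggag

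Of the genes whose windows are shown, Ltb, with the NF-kB letters, was 6.40-fold higher in mTEC than in SIEC, and Tnfsf15, with the CDX letters, differed by −0.75 between Cdx1-/- and Cdx1+/+ mTEC without passing the test. Tnfrsf9, with both, did not pass between genotypes (0.27, adjusted p = 0.399) or, at its brightest probe, between tissues (0.23, adjusted p = 0.343). Eda, with neither, fell 2.05-fold in Cdx1-/- mTEC. Among the genes with matches whose windows are not printed, Tnfrsf17 and Tnfsf13b, with the CDX letters, differed by 0.08 and 0.24 between genotypes without passing. Tnfrsf25, with the NF-kB letters, differed by −0.47 between tissues and did not pass.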

How the data were processed

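Total RNA of the 8 pooled samples was labelled with Cy3 and hybridised to 1 array each, per the labels. The deposited scanner files give intensity per spot from Agilent Feature Extraction 10.7.3.1, with background subtraction and detrending but no scaling between arrays, per the file headers, which also give probe positions on mm9. The authors' deposited table of normalized signal equals the processed intensity of each array times 1 constant, with a median of 1 per array, and no source used here says how that constant was chosen.

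Of 59305 spots of 55681 probes, 12 probes were lost to outlier flags. No spot was saturated. Spots of a probe were averaged, log2 was taken of the processed intensity, and the 75th percentile of the array over probes was subtracted (deposited values were on a linear scale). Gene names came from the probe's accession through RefSeq for 27506 probes and otherwise from the file. A gene was represented by the brightest of its probes that passed the background flag on 2 or more arrays of 1 mTEC genotype or, between tissues, on 1 or more SIEC arrays. Fits used limma 3.58.1 (lmFit, eBayes) in R 4.3.3, 2-sided, over all genes, with Benjamini-Hochberg adjustment and a threshold of 0.05: 6 mTEC arrays for genotype, and all 8 with genotype as a term for tissue. "At least" folds set the mean of the bright group against, on each dim array, the higher of the gene's own level and the lowest level well above background. The 95% intervals, for genotype and tissue, joined limma's SE to the residual degrees of freedom of the gene's own fit. They are therefore wider than limma's test implies. Between genotypes the interval of Tnfsf8 included 0 (−1.47 to 0.09), while limma's unadjusted p was 0.0442. The number of arrays limits the precision, and the scripts were tested on simulated data.

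The titles number the mTEC samples and do not say whether samples of the same number were paired. Deviations from the group means correlated by 0.322, 0.147 and 0.148 between Cdx1-/- and Cdx1+/+ arrays of the same number. Between those of different number the correlations were −0.222 to 0.056. These values do not settle the pairing, so the replicate number was used as a block only among the alternatives. Alternatives were normexp (offset 50), quantile normalization, the authors' values, other filters on dim probes, single probes, slide or replicate number as a block, and leaving out each array. Every member is accounted for; values on every mTEC array are given for members past the genotype test and for 8 genes of mTEC development and TNF signalling. For those 8, for the 10 largest tissue differences higher in mTEC and for all 7 lower, the lowest, median and highest of the 6 mTEC arrays and both SIEC values are given. The members and lists were chosen with earlier results of these data known. A few genes of the signalling and marker lists are counted in their lists but not reported here by name.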

Additional observations from a re-analysis of the deposited data

Results flagged for a closer look

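In 2 member genes the difference between genotypes had opposite signs in the tissues, with all mTEC arrays of the genotypes apart. Tnf differed by −0.51 between Cdx1-/- and Cdx1+/+ mTEC and by 0.88 between the SIEC arrays labelled Cdx1-/- and Cdx1+/+. Tnfrsf25 differed by 0.48 in mTEC, where it did not pass the test, and by −0.78 between the SIEC arrays. SIEC has 1 array per label, and Cdx1 went against the labels there, so the difference between the tissues was not tested. The opposite signs rest on those labels: with them exchanged, Tnf and Tnfrsf25 would differ in SIEC in the same direction as in mTEC.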

How the results depend on the processing

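Between genotypes the 5 higher and 5 lower members became 2 and 5 with normexp, 0 and 3 without a filter on dim probes (limma over all genes, with more dim genes to adjust for), and 1 and 4 with slide as a block. Leaving out 1 array gave 0 to 2 higher and 3 to 6 lower members, and 3 genes (Tnfrsf10b, Eda and Tnfsf4) stayed past the threshold in all 14 settings. The replicate block gave 6 higher and 5 lower, ending Ngfr and Tnfsf14 and adding Cd27, Tnfrsf25 and Tnfsf15, and it changed no other member's call. Between tissues the 28 higher and 7 lower members became 23 and 12 with normexp, which turned Tnfsf11 to −0.35, Tnfsf4 to −0.20 and Tnfrsf22 to −0.40. Leaving out 1 array gave 27 to 28 higher and 6 to 8 lower. In the SIEC pair, members at least 2-fold higher on the array labelled Cdx1-/- numbered 0 with normexp, 1 with quantile normalization and 1 in the authors' values, in place of 2. Beyond what is stated, the cause was not tested. Signal over background limits dim members such as Tnfsf4, Tnfsf11, Tnfrsf22, Tnfrsf26, Fasl, Eda and Tnfsf8.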
